A study of Homo sapiens with 12 samples.

Results

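The 9 AP-1 subunit genes described here, FOS, FOSB, FOSL1, FOSL2, JUN, JUNB, JUND, BATF3 and MAFF, were found by symbol among the 32269 gene identifiers of a deposited RNA-seq count table, and each had 1 row. RNA came from the human gastric cancer cell lines MKN1 and AGS, each with and without cantharidin sodium. The 4 groups were MKN1 treated with cantharidin sodium, untreated MKN1, AGS treated with cantharidin sodium and untreated AGS, with 3 libraries each, described as biological replicates by the series' design text. Nothing else sets the groups apart in the labels, each line is a single established culture model, and the sources used here give neither the dose of the drug nor how long it was applied.

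AP-1 is a dimer of basic leucine zipper proteins. Fos proteins (FOS, FOSB, FOSL1, FOSL2) bind DNA only with a partner, usually a Jun protein (JUN, JUNB, JUND), while Jun proteins can also pair with themselves. FOS, FOSB, JUN and JUNB are immediate early genes that mitogens and stress switch on through MAP kinases. BATF3 and the small Maf protein MAFF have a leucine zipper but no activation domain of their own. Cantharidin, the parent compound of the drug, is known as an inhibitor of protein phosphatases of the PP2A type.

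The promoters of FOS, FOSB and JUND are shown because these were the members whose mRNA differed between treated and untreated cells in at least one line. Each sequence is the 250 bases before the start site that RefSeq gives on GRCh38.p14, 5′ to 3′ on the gene's own strand. FOS lies at chr14:75278578-75278827 on the plus strand, FOSB at chr19:45467746-45467995 on the plus strand and JUND at chr19:18281623-18281872 on the minus strand. Capitals mark a TATA box (TATAAA) in FOS and FOSB, and a cAMP response element (TGACGTCA) in JUND.
FOS: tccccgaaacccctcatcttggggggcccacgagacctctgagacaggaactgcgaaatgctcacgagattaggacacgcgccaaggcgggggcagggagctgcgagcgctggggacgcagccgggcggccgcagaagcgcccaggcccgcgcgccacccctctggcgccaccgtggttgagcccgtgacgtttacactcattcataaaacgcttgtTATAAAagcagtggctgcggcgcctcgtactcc
FOSB: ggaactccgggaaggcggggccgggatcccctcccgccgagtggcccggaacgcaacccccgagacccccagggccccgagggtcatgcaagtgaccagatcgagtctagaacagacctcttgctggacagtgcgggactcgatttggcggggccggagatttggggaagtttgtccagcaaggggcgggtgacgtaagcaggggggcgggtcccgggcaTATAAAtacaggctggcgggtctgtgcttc
JUND: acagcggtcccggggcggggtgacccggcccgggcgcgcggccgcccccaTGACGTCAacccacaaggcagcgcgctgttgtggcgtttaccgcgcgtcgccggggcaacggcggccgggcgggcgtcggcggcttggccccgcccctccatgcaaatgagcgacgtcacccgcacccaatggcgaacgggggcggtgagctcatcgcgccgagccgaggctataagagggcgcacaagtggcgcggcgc

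RefSeq windows of 300 bases, 250 before and 50 after the start, were present for 7 of the 9 members, with 2 for MAFF, and there was no entry for FOSL1 and BATF3. Both strands of the 8 windows were searched for 6 motifs, and no matches overlapped. Only exact matches to each motif were counted, so sites that differ from it by a base or more were missed. TATAAA began at base -33 from the start in FOS, -30 in FOSB and -31 in JUNB, and 11.5% of all 35116 promoter windows held it. TGACGTCA began at -200 in JUND and at -54 in 1 MAFF window, against 1.85% of all windows. The TPA response element TGANTCA was found in FOSL2 alone, at base 5, against 7.71% of all windows. The GC box GGGCGG occurred 6 times in JUND and 4 times in the same MAFF window, and 45% of all windows had at least 1. CCAAT was found in JUN, JUNB, JUND and MAFF, against 34.6% of all windows. The CArG box, the site of serum response factor, was found in none of the 8 windows and in 1.29% of all windows. Sequence beyond the windows was not searched, so a gene without a match may still have such a site farther away.

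Library totals lay between 28604966 and 51604215 counts, and all 9 members were among the 20280 genes that passed the filter on low counts. Levels are CPM, a gene's count relative to the library's total, scaled by TMM factors. For levels compared between genes they are divided by exon length in kilobases (RPKM). MKN1 untreated replicate 3 stood apart before any test was made. Its log2 CPM correlated with those of MKN1 untreated replicates 1 and 2 at r = 0.9702 and 0.9722, whereas those 2 correlated at 0.9853. On the first principal component of the MKN1 libraries it lay at -7.66, on the side of the treated libraries, while untreated replicates 1 and 2 lay at 39.3 and 40.3. It held the lowest level of the 6 MKN1 libraries for FOS, FOSB, FOSL1, JUNB and JUND, and the highest for FOSL2. Values of members in comparisons that involve untreated MKN1 are therefore also given without it.

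The simple epithelial markers were at 1 CPM or more in all groups, 5 of 5 each. All 5 squamous markers (TP63, KRT5, KRT6A, KRT14, DSG3) reached 1 CPM in both MKN1 groups and none did in either AGS group, where they summed to at most 0.77 CPM. Summed blood markers, 3 of 4 measured, were at 18.3 to 32.9 CPM in treated MKN1 and 38.7 to 53.5 CPM in untreated MKN1, and at 1.70 to 2.76 CPM in treated AGS and 7.88 to 20.5 CPM in untreated AGS. Among these, HBB had at most 0.0774 CPM in treated AGS libraries against 6.80 to 18.9 CPM in untreated AGS libraries, CD68 shares 81.7% of its exon bases with other genes, and PTPRC was at 0 in treated AGS. Summed fibroblast markers were at 57.2 to 96.6 CPM in treated MKN1, 94.3 to 148 CPM in untreated MKN1, 10.6 to 13.6 CPM in treated AGS, where LUM was at 0, and 19.0 to 24.8 CPM in untreated AGS, where DCN was at 0. Summed endothelial markers, 3 of 3 measured, reached at most 2.44 CPM in MKN1, where CDH5 was at 0 with treatment, and 0.744 CPM in AGS. The part of these marker differences in the results below was not tested.

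The lines differed in which subunit mRNA was most abundant per kilobase. JUNB led in MKN1, with 150.4 ± 19.7 RPKM in treated and 165 ± 31.5 RPKM in untreated cells (SD, n = 3 each). In treated MKN1, JUNB did not overlap FOSL1, which was next at 68.3 ± 16.5 RPKM. In untreated MKN1 the libraries of JUNB and FOSL1 (118 ± 72.1 RPKM) did overlap. In treated AGS the order began with JUN, JUND, FOSL2 and JUNB, and JUN at 31.9 ± 4.18 RPKM overlapped JUND at 25.5 ± 3.11 RPKM. In untreated AGS JUND stood first at 65.0 ± 8.42 RPKM, with no overlap with JUN at 31.9 ± 4.49 RPKM, and JUN did not overlap FOSL2 at 18.0 ± 0.606 RPKM. FOSB and BATF3 were the lowest members in every group.

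**Figure D1:**
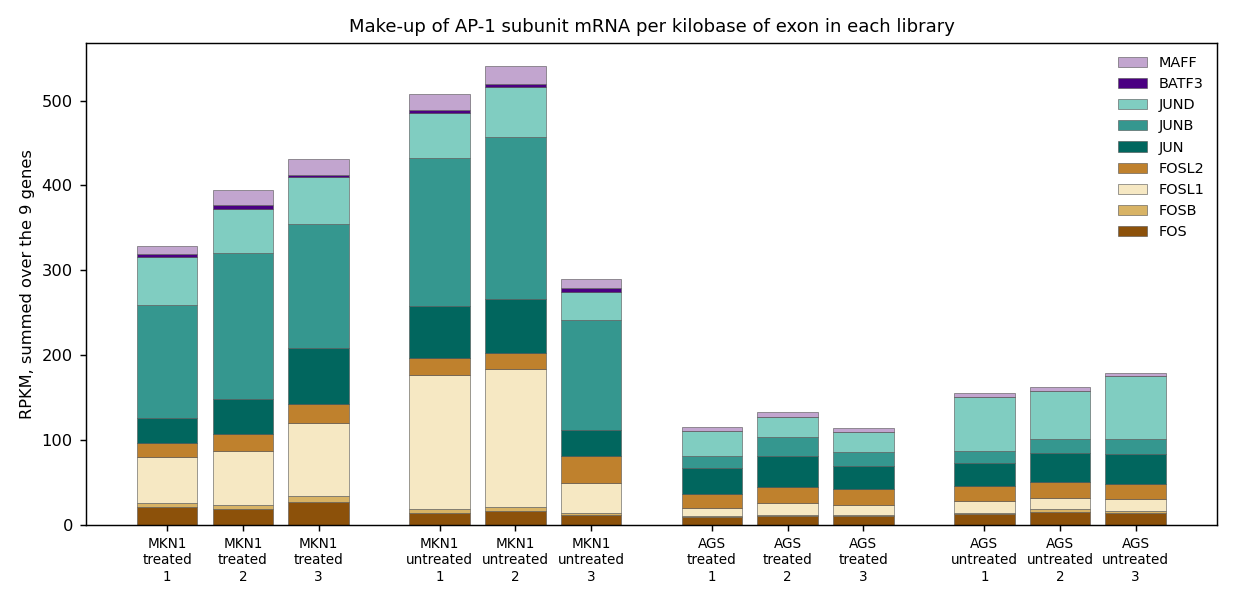
RPKM of the 9 AP-1 subunit genes stacked for each of the 12 libraries, grouped by line and treatment. JUNB is the largest segment of every MKN1 bar, and the JUND segment is smaller in treated than in untreated AGS bars.

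Summed over the 9 genes, AP-1 subunit mRNA amounted to 385 ± 51.5 RPKM in treated and 446 ± 137 RPKM in untreated MKN1. The sums were 121 ± 10.8 RPKM in treated AGS and 165 ± 12.5 RPKM in untreated AGS. JUND made up 21.3% ± 3.82 of the sum in treated AGS and 39.3% ± 3.53 in untreated AGS, while JUNB made up 14.3% ± 2.07 and 9.68% ± 0.589. The Jun genes JUN, JUNB and JUND together held 62.0 to 67.2% in treated MKN1, 56.9 to 66.7% in untreated MKN1, 59.3 to 64.9% in treated AGS and 66.2 to 70.6% in untreated AGS.

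The first comparison asked which subunits responded to cantharidin sodium in AGS. Of the 9 members, 3 were lower and 0 higher at an adjusted p below 0.05, by edgeR's quasi-likelihood test with Benjamini-Hochberg adjustment over all tested genes. Over all genes 11.6% were called lower and 9.21% higher. By unadjusted p below 0.05, by DESeq2 and by limma voom 0 members were higher, and limma voom called 2 lower. The 3 were JUND, FOSB and FOS, and JUND had the largest change. The members' median log2 fold change was -0.0015, beside -0.01 for all tested genes. In RNA from whole cultures, fewer cells that carry a transcript and less of it per cell cannot be told apart.

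JUND (ENSG00000130522, chr19:18279760-18281622, minus strand, GRCh38) encodes the Jun protein that most cell types keep at a steady level. It binds the tumour suppressor menin and slows proliferation in mouse fibroblasts. It had 54.3, 43.9 and 44.6 CPM in treated AGS libraries 1 to 3, against 119, 106 and 137 CPM in untreated AGS libraries. All 3 treated libraries lay far below all 3 untreated ones, and no other member showed so wide a gap in AGS. JUND fell 2.54-fold in treated AGS, a log2 fold change of -1.35 (SE 0.19, edgeR adjusted p = 0.000731). It was called under all 23 alternative settings, from -1.45 to -0.93.

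Changes in AGS followed base composition: the median log2 fold change was 0.18 in the fifth of genes with the lowest GC content and -0.29 in the fifth with the highest, over 20207 genes. At 69.7% GC, the longest JUND transcript had the highest GC content of the 9 members, and its log2 fold change was -0.93 (edgeR adjusted p = 0.00195) with the trend of GC content and length removed. For JUNB, next at 64.9% GC, removal of the trend moved the log2 fold change in AGS to 0.50 (edgeR adjusted p = 0.0784), against 0.13 with the trend left in.

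FOS (ENSG00000170345, chr14:75278774-75282230, plus strand) is the prototype of the family, with a short-lived mRNA. It had 28.8, 32.0 and 32.2 CPM in treated AGS libraries 1 to 3, against 40.3, 49.2 and 43.7 CPM in untreated ones. The groups did not overlap, and the treated values were close together. FOS fell 1.43-fold in treated AGS (log2 fold change -0.52, SE 0.15, edgeR adjusted p = 0.0281).

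FOSB (ENSG00000125740, chr19:45467995-45475179, plus strand) is another immediate early Fos gene, with a long and a truncated protein form. Its levels were 5.08, 6.58 and 4.89 CPM in treated AGS libraries and 10.2, 15.5 and 11.4 CPM in untreated AGS libraries. Again every treated library was below every untreated one. FOSB fell 2.23-fold in treated AGS (log2 fold change -1.16, SE 0.33, edgeR adjusted p = 0.028). Both the FOS and the FOSB call in AGS were lost without AGS untreated replicate 2 or 3, or AGS treated replicate 1, 2 or 3 (-0.55 to -0.44 for FOS and -1.31 to -0.97 for FOSB), and after removal of the trend with GC content and length (edgeR adjusted p = 0.0684 for FOS and 0.0712 for FOSB). The FOSB call was also lost by limma voom (adjusted p = 0.0606). A fit of the AGS libraries alone, which called 8368 genes, kept both (edgeR adjusted p = 0.000923 for FOS and 0.000718 for FOSB). FOS was called in 15 of 23 alternative settings and FOSB in 14.

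MAFF (ENSG00000185022, chr22:38200767-38216511, plus strand) encodes a small Maf that pairs with NRF2-type factors at antioxidant response elements. It had 25.6, 34.9 and 27.9 CPM in treated AGS and 23.3, 23.6 and 23.5 CPM in untreated AGS. All treated libraries were above the untreated ones, but the log2 fold change of 0.33 (95% interval -0.21 to 0.87) was not called (edgeR adjusted p = 0.374). It was called in 1 of 23 alternative settings, the fit of the AGS libraries alone (0.33, SE 0.10, edgeR adjusted p = 0.0265). Together 4 members did not overlap between treated and untreated AGS, against 52.4% of all tested genes.

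The other members gave no call in AGS. JUN (ENSG00000177606, chr1:58780788-58784327, minus strand), the Jun protein that JNK phosphorylates, had 110.2, 129 and 99.5 CPM in treated and 94.9, 119 and 125 CPM in untreated AGS. Its log2 fold change of -0.0015 had a 95% interval of -0.63 to 0.62. FOSL2 (ENSG00000075426, chr2:28392448-28417312, plus strand), a Fos protein without the C-terminal activation domain of FOS, had 117, 138 and 134 CPM in treated and 125, 134 and 127 CPM in untreated AGS (0.01, 95% interval -0.37 to 0.39). Both genes had overlapping libraries, and the FOSL2 interval was the narrower one. FOSL1 (ENSG00000175592, chr11:65892049-65900573, minus strand), the related protein FRA1 that ERK signalling stabilises, had 18.2, 27.4 and 22.6 CPM in treated and 26.1, 26.1 and 28.5 CPM in untreated AGS (-0.24, 95% interval -1.12 to 0.64). JUNB (ENSG00000171223, chr19:12791496-12793315, plus strand), which can restrain the activity of JUN, had 26.3, 40.3 and 28.7 CPM in treated and 25.5, 30.2 and 31.7 CPM in untreated AGS (0.13, 95% interval -0.27 to 0.52). JUNB shares 14.2% of its exon bases with HOOK2 on the other strand and, without strand information, reads there cannot be assigned to one gene.

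BATF3 (ENSG00000123685, chr1:212686418-212699985, minus strand), known from mice for its need in a class of dendritic cells, was near its detection limit in AGS. It had 0, 0.336 and 0.0839 CPM in treated and 0.0591, 0 and 0.128 CPM in untreated AGS libraries, 16 and 8 reads summed. A count of 0 allows up to 0.0912 CPM in AGS treated replicate 1 and 0.0857 CPM in AGS untreated replicate 2. The ratio of summed levels, treated over untreated, was 2.32 with a counting interval of 0.938 to 6.27, so that no difference was detectable at this depth.

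**Figure D2:**
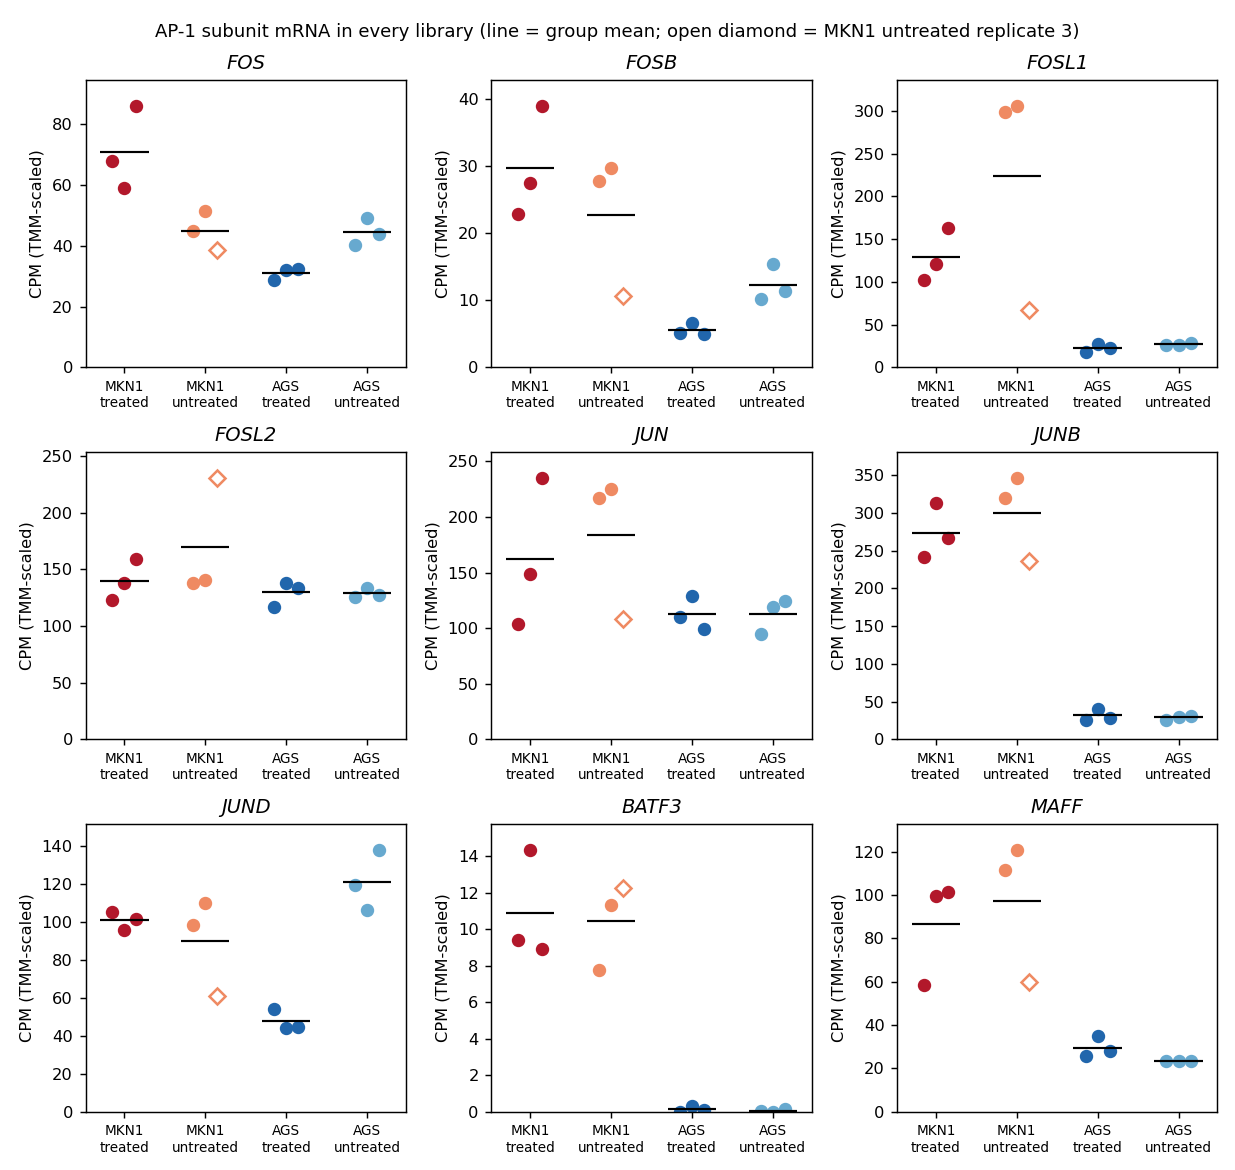
TMM-scaled CPM of each AP-1 subunit gene in each library on a linear axis from 0, with 3 points and a line at the mean for each group of line and treatment, and MKN1 untreated replicate 3 as an open diamond. Treated AGS points lie below untreated AGS points for FOS, FOSB and JUND, and treated MKN1 points lie above untreated ones for FOS.

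In MKN1, 1 of the 9 members was called higher with treatment and 0 lower, against 2.8% of all tested genes called higher and 3.9% lower by the same edgeR test. By unadjusted p below 0.05, by DESeq2 and by limma voom 0 members were lower. The member called was FOS. It was also the sole member whose treated and untreated MKN1 libraries did not overlap, which held for 21.4% of all tested genes.

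FOS had 67.8, 59.0 and 86.0 CPM in treated MKN1 libraries 1 to 3, against 44.7, 51.4 and 38.5 CPM in untreated ones. All treated libraries were above all untreated ones, the reverse of the order in AGS. FOS rose 1.58-fold in treated MKN1 (log2 fold change 0.66, SE 0.15, edgeR adjusted p = 0.023). Without MKN1 untreated replicate 3 it was 0.56 (SE 0.15, edgeR adjusted p = 0.0283). The call was lost without MKN1 untreated replicate 1 (edgeR adjusted p = 0.0604) and without MKN1 treated replicate 3 (0.0524). The SE of 0.15 rests on a spread estimated over both lines together. Replicate libraries of a group correlated less in MKN1 (r from 0.9702 to 0.9853) than in AGS (0.9876 to 0.9901). In a fit of the MKN1 libraries alone the SE was 0.19 and the call was lost (edgeR adjusted p = 0.14).

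FOSL1 had 102, 121 and 163 CPM in treated MKN1 libraries and 298, 306 and 66.5 CPM in untreated ones. The first 2 untreated libraries were above all treated ones, and untreated replicate 3, at 0.22 of their mean, was below all of them. With all libraries the log2 fold change was -0.79 (SE 0.40, 95% interval -1.66 to 0.07, edgeR adjusted p = 0.254). Without untreated replicate 3 it was -1.23 (SE 0.18, edgeR adjusted p = 0.00144), the groups did not overlap, and 15.1% of all tested genes were called in either direction in MKN1. The 22 other alternative settings gave -1.0 to -0.50 with no call.

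FOSB had 23.0, 27.5 and 39.0 CPM in treated and 27.8, 29.7 and 10.7 CPM in untreated MKN1, with a log2 fold change of 0.39 (95% interval -0.30 to 1.09, edgeR adjusted p = 0.499) and 0.05 without untreated replicate 3. JUND had 105, 95.7 and 101 CPM in treated and 98.3, 110.0 and 61.0 CPM in untreated MKN1 (0.17, 95% interval -0.23 to 0.56), and -0.05 without that replicate. FOSB and JUND, both lower in treated AGS, thus overlapped between treated and untreated MKN1, and the low untreated library decided the sign for JUND.

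JUN ranged widely in both MKN1 groups, with 104, 149 and 235 CPM in treated and 217, 225 and 108 CPM in untreated libraries (-0.18, 95% interval -0.80 to 0.45). JUNB had 242, 313 and 266 CPM in treated and 319, 346 and 236 CPM in untreated MKN1 (-0.13, 95% interval -0.52 to 0.25). Both overlapped between groups, and in both untreated replicate 3 was the low untreated library. Without it the changes were -0.45 for JUN and -0.28 for JUNB, neither called (edgeR adjusted p = 0.259 and 0.294). Every treated library was then below both untreated ones for JUNB, while JUN still overlapped. FOSL2 had 123, 138 and 159 CPM in treated and 138, 140.4 and 230.4 CPM in untreated MKN1 (-0.28, 95% interval -0.66 to 0.10), and its change was 0.0045 without untreated replicate 3, where it stood highest.

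MAFF had 58.4, 99.3 and 102 CPM in treated and 112, 121 and 59.8 CPM in untreated MKN1 (-0.17, 95% interval -0.70 to 0.36). BATF3 had 9.38, 14.3 and 8.90 CPM in treated and 7.75, 11.3 and 12.3 CPM in untreated MKN1 (0.05, 95% interval -0.90 to 1.01). With all libraries neither gene separated the groups. Without untreated replicate 3 every treated library was below both untreated ones for MAFF, with an uncalled change of -0.43 (edgeR adjusted p = 0.169), and the BATF3 change was 0.18.

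**Figure D3:**
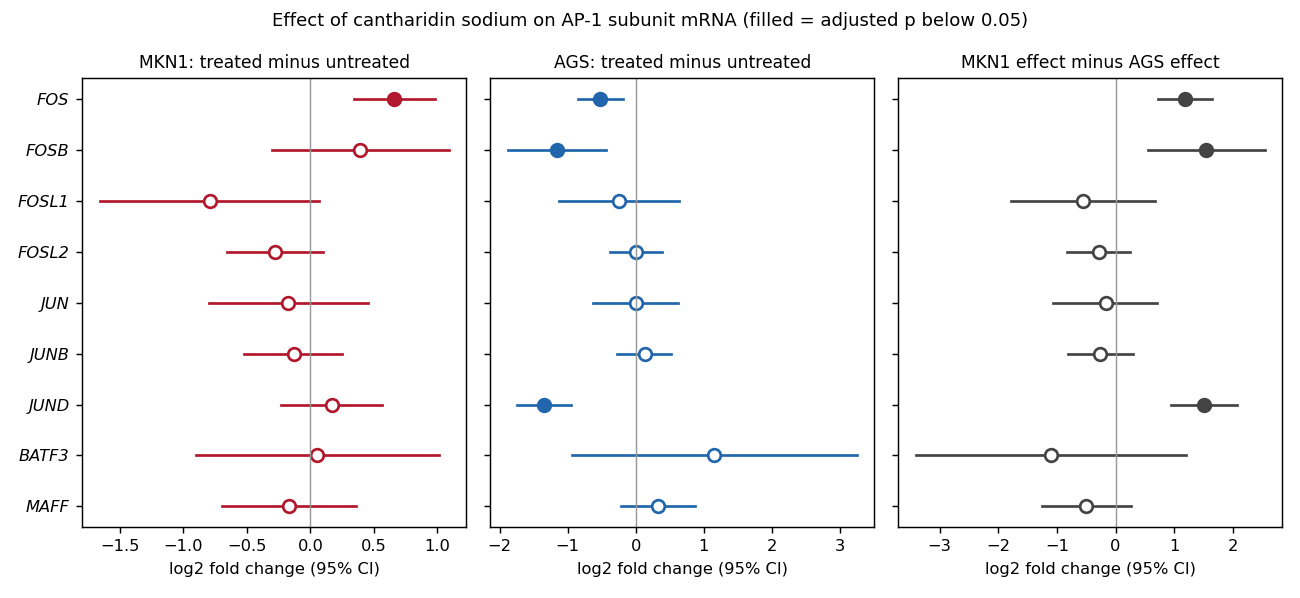
Log2 fold changes of the 9 genes with 95% intervals for treated minus untreated MKN1, treated minus untreated AGS, and the MKN1 effect minus the AGS effect, with filled points for adjusted p below 0.05. FOS is filled in all 3 panels with opposite signs in MKN1 (0.66) and AGS (-0.52), and JUND and FOSB are filled in AGS and in the difference.

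The response to the drug differed between the lines for 3 of the 9 members, by the contrast of the MKN1 effect minus the AGS effect in the same edgeR fit. All 3 were higher in this difference and 0 lower, against 8.38% of all tested genes called higher and 7.3% lower. By unadjusted p below 0.05, by DESeq2 and by limma voom 0 members were lower. FOS differed by 1.18 on the log2 scale (SE 0.21, edgeR adjusted p = 0.00336), having been called higher in MKN1 and lower in AGS. JUND differed by 1.51 (SE 0.26, edgeR adjusted p = 0.00261) and FOSB by 1.55 (SE 0.46, edgeR adjusted p = 0.0389).

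The FOS and JUND differences were called under all 22 alternative settings, from 1.02 to 1.30 for FOS and from 1.25 to 1.68 for JUND. The FOSB difference was called in 10 of 22, and was lost without any one AGS library, without MKN1 treated replicate 2 or 3, and after removal of that trend (edgeR adjusted p = 0.0689) or with no filter on low counts (0.0557). Without MKN1 untreated replicate 3 the differences were 1.08 for FOS, 1.30 for JUND and 1.21 for FOSB, all called, and FOSL1 was then also called at -0.99 (SE 0.25, edgeR adjusted p = 0.0153), beside 22.2% of all tested genes. For FOSL1 with all libraries the difference was -0.55 (95% interval -1.78 to 0.68), for MAFF -0.50 (-1.26 to 0.26), for FOSL2 -0.29 (-0.83 to 0.25), for JUNB -0.26 (-0.81 to 0.29), for JUN -0.17 (-1.06 to 0.71) and for BATF3 -1.10 (-3.41 to 1.21).

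**Figure D4:**
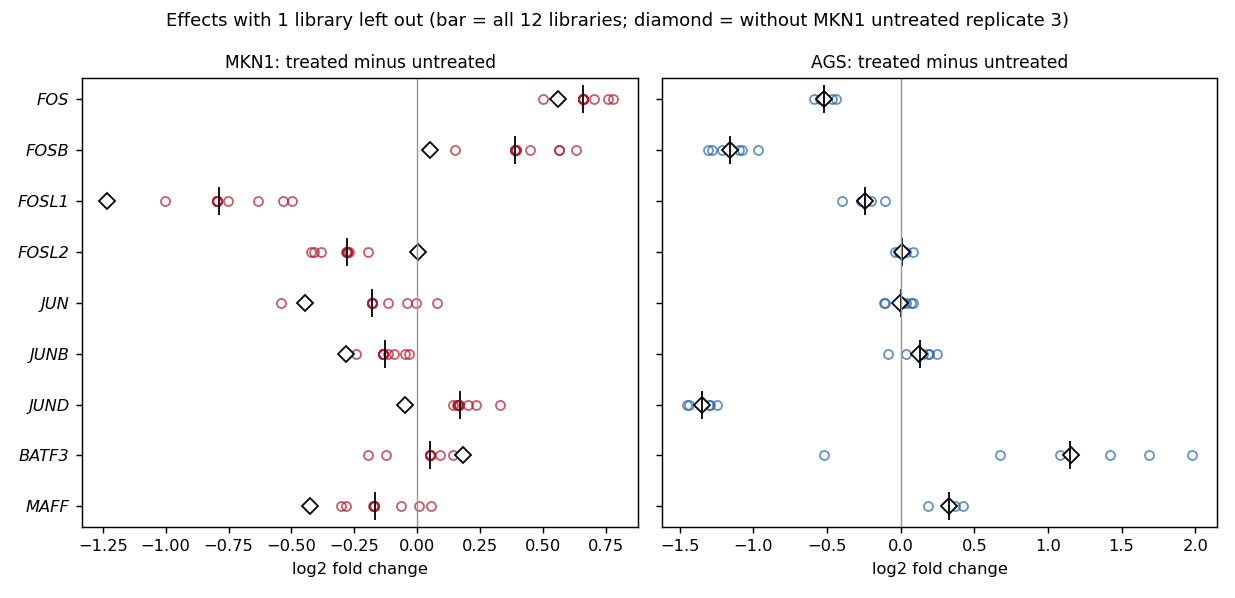
Log2 fold changes, treated minus untreated, of the 9 genes in MKN1 and AGS with each library left out in turn (circles), with all 12 libraries (bars) and without MKN1 untreated replicate 3 (diamonds). JUND in AGS lies between -1.45 and -1.25 in every point, and FOSL1 in MKN1 moves to -1.23 at the diamond.

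Between the lines, MKN1 held more of most subunits. Without the drug 6 of the 9 members were higher in MKN1 than in AGS and 0 lower, against 34.9% of all tested genes called higher in MKN1 and 31.4% lower by edgeR. One member, JUND, was lower at an unadjusted p below 0.05 and by limma voom, and 0 by DESeq2. Limma voom called 4 members higher and DESeq2 7. With the drug 7 were higher and 0 lower, against 36.8% higher and 31.4% lower. By unadjusted p below 0.05, by DESeq2 and by limma voom 0 were then lower.

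JUNB and BATF3 set the lines apart most clearly. JUNB was 8.61-fold higher in MKN1 than AGS with treatment (log2 fold change 3.11, SE 0.19, edgeR adjusted p = 1.45e-08) and 10.3-fold higher without (3.37, SE 0.20, edgeR adjusted p = 7.79e-09). BATF3 counts summed to 1091 in treated MKN1 against 16 in treated AGS, a ratio of 71.6 (95% counting interval 43.9 to 126), and to 939 in untreated MKN1 against 8 in untreated AGS, a ratio of 163 (82.6 to 380). Every MKN1 library exceeded every AGS library for both genes, under either condition.

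FOSL1 and MAFF followed the same order. FOSL1 was 5.66-fold higher in treated MKN1 than in treated AGS (log2 fold change 2.50, SE 0.42, edgeR adjusted p = 0.000159) and 8.31-fold higher in untreated MKN1 than in untreated AGS (3.05, SE 0.43, edgeR adjusted p = 3.49e-05). MAFF was 2.93-fold higher in treated MKN1 (1.55, SE 0.25, edgeR adjusted p = 0.000114) and 4.14-fold higher in untreated MKN1 (2.05, SE 0.26, edgeR adjusted p = 1.15e-05). Their libraries did not overlap between lines. Without MKN1 untreated replicate 3 the untreated log2 differences were 3.51 for JUNB, 7.15 for BATF3, 3.49 for FOSL1 and 2.31 for MAFF, all called.

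The log2 differences between lines of FOS, JUND and FOSB shifted upwards with treatment. FOS was 2.29-fold higher in treated MKN1 than in treated AGS (1.19, SE 0.15, edgeR adjusted p = 1.15e-05), while without the drug its log2 difference was 0.01 (95% interval -0.31 to 0.34). JUND was 2.12-fold higher in treated MKN1 (1.08, SE 0.18, edgeR adjusted p = 0.000168), and without the drug its difference was -0.43 (95% interval -0.83 to -0.04, edgeR adjusted p = 0.0512), or -0.22 without MKN1 untreated replicate 3. That untreated difference was called in 6 of 23 alternative settings, among them removal of the GC and length trend (-0.54, edgeR adjusted p = 0.00719). With this trend removed, the differences between treated lines were 0.97 for FOS, 0.72 for JUND and 2.21 for FOSB, all called. FOSB was 5.4-fold higher in treated MKN1 (2.43, SE 0.34, edgeR adjusted p = 3.11e-05) and 1.84-fold higher in untreated MKN1 (0.88, SE 0.32, edgeR adjusted p = 0.0285), where MKN1 untreated replicate 3 overlapped the AGS libraries. Without that replicate the untreated FOSB difference was 1.22 (edgeR adjusted p = 0.000417) and that of FOS 0.12. The size of this shift with treatment is the same quantity as the difference of effects given above.

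JUN and FOSL2 were not called between the treated lines. JUN differed by 0.53 with the drug (95% interval -0.10 to 1.15) and by 0.70 without (SE 0.29, edgeR adjusted p = 0.048), or by 0.97 without MKN1 untreated replicate 3 (edgeR adjusted p = 0.00447). The JUN call in untreated cells was lost in 13 of 23 alternative settings, among them limma voom (adjusted p = 0.0712). FOSL2 differed by 0.11 with the drug (95% interval -0.27 to 0.49) and by 0.40 without (95% interval 0.02 to 0.78, edgeR adjusted p = 0.0615), or by 0.11 without MKN1 untreated replicate 3, and the untreated difference was called in 9 of 23 alternative settings. The untreated FOSB call was lost without AGS untreated replicate 1 or 3 and without MKN1 untreated replicate 1 or 2 (0.66 to 0.83), and by limma voom (adjusted p = 0.0624).

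The genes whose pattern was most like that of a called member were taken by Pearson correlation of log2 CPM, centred on each line's mean, over 12 libraries that share line and treatment, among 11991 genes. They were picked for this likeness, so changes that resemble those of the member follow from the choice. Nearest to FOS were MEMO1 (r = 0.951), NQO2 (0.946) and MICA (0.944), an MHC-related ligand of natural killer cells. MICA rose in treated MKN1 (log2 fold change 0.71) and fell in treated AGS (-0.71). Nearest to FOSB were PANX1 (0.959), DUSP10 (0.950), a phosphatase of JNK and p38, and ARID5A (0.945), and all 3 fell in treated AGS, by 0.56, 0.96 and 1.26 on the log2 scale. Nearest to JUND were LINC01963 (0.980), MEPCE (0.965), a capping enzyme of 7SK RNA, and POP7 (0.964), which fell in treated AGS by 1.03, 1.17 and 0.77 on the log2 scale.

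Of 13 other bZIP genes of the AP-1 family, 0 were called in MKN1 by edgeR, against 2.8% of all genes higher and 3.9% lower. In AGS 0 were called, against 9.21% of all genes higher and 11.6% lower. At an unadjusted p below 0.05, 3 were higher and 1 lower in MKN1, and 0 higher and 1 lower in AGS. DESeq2 called 1 higher in MKN1, and limma voom 0 in either line. Their median log2 fold change was 0.19 in MKN1 and -0.21 in AGS, beside 0.01 and -0.01 for all tested genes. Between lines 7 were higher and 3 lower in MKN1 with the drug, and 5 higher and 5 lower without, against 36.8% and 31.4% of all tested genes with the drug and 34.9% and 31.4% without. MAF averaged 70.3 ± 17.6 CPM in treated MKN1 against 0.0351 ± 0.0392 CPM in treated AGS, and 55.1 ± 5.98 CPM in untreated MKN1 against 0.0263 ± 0.0455 CPM in untreated AGS. BATF, the relative of BATF3, went the other way, at 0.0913 ± 0.0399 CPM in treated MKN1 against 8.96 ± 0.492 CPM in treated AGS, and at 0.0915 ± 0.0912 CPM in untreated MKN1 against 12.3 ± 1.29 CPM in untreated AGS.

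Of 20 genes of the MAP kinase route to AP-1, MKN1 had 0 called higher and 2 lower, against 2.8% and 3.9% of all genes. In AGS 1 was called higher and 6 lower, against 9.21% and 11.6% of all genes. In MKN1 the 2 were MAPK3, which encodes ERK1, at 22.6 ± 3.32 CPM in treated against 44.2 ± 4.00 CPM in untreated cells (log2 fold change -0.97, SE 0.12, edgeR adjusted p = 0.002), and MAPK11, a p38 kinase (-0.77). At an unadjusted p below 0.05, 3 were higher in MKN1, and 0 by DESeq2 or limma voom. In AGS RPS6KA5, the kinase MSK1 that phosphorylates histone H3 at immediate early genes, rose to 27.2 ± 3.04 CPM in treated against 10.5 ± 2.04 CPM in untreated cells (1.38, SE 0.19, edgeR adjusted p = 0.000846). MAP2K3 (-0.62) and MAPK7 (-0.59) fell in AGS. The number called in either line was 9, and it was 4 once the GC and length trend was taken out.

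Of 11 factors that transcribe FOS and JUN genes, 1 was called higher and 0 lower in MKN1, against 2.8% and 3.9% of all genes. In AGS 0 were called higher and 2 lower, against 9.21% and 11.6% of all genes. ELK3, a partner of serum response factor, rose in MKN1 (log2 fold change 0.65, SE 0.15, edgeR adjusted p = 0.0232). SRF, serum response factor itself, and its coactivator MRTFA fell in AGS, by 0.32 (SE 0.10, edgeR adjusted p = 0.039) and 0.55 (SE 0.17, edgeR adjusted p = 0.0342) on the log2 scale. By unadjusted p, DESeq2 and limma voom, 0 were lower in MKN1. In AGS 2 were higher at an unadjusted p below 0.05, 0 by DESeq2 and 1 by limma voom.

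Of 17 other immediate early genes tested, 1 was called higher and 2 lower in MKN1, against 2.8% and 3.9% of all genes. In AGS 2 were called higher and 3 lower, against 9.21% and 11.6% of all genes. BTG2, an antiproliferative p53 target, rose in MKN1 (0.56, SE 0.13, edgeR adjusted p = 0.0295) and fell in AGS (-0.79, SE 0.13, edgeR adjusted p = 0.00171), the signs that FOS had. CCN1, a matrix protein driven by YAP and serum response factor, and IER5 fell in MKN1, by 1.32 and 0.71 on the log2 scale. KLF10 and KLF6 rose in AGS, by 1.16 (SE 0.20, edgeR adjusted p = 0.00213) and 0.79 (SE 0.19, edgeR adjusted p = 0.0112). EGR1, often induced together with FOS and named here after its values were seen, averaged 213 ± 35.1 CPM in treated and 189 ± 66.9 CPM in untreated MKN1, and 65.3 ± 14.3 CPM in treated and 68.7 ± 15.8 CPM in untreated AGS. EGR4 was not analysed here.

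Of 18 AP-1 target genes tested, 0 were called higher and 1 lower in MKN1, against 2.8% and 3.9% of all genes. In AGS 2 were called higher and 1 lower, against 9.21% and 11.6% of all genes. CCL2, a monocyte chemokine, fell to 10.1 ± 4.53 CPM in treated MKN1, against 64.0 ± 20.7 CPM in untreated MKN1 (-2.66, SE 0.37, edgeR adjusted p = 0.00268). In AGS TGFB1 fell (-0.60, SE 0.12, edgeR adjusted p = 0.00621). PLAU, which encodes the urokinase plasminogen activator, rose in AGS at a low level, to 0.64 ± 0.192 CPM in treated against 0.0512 ± 0.058 CPM in untreated cells, and it shares 31.1% of its exon bases with C10orf55 on the other strand. By unadjusted p 3 were higher in MKN1, 1 by DESeq2 and 0 by limma voom. Between lines 12 were higher and 3 lower in MKN1 with the drug, against 36.8% and 31.4% of all tested genes. Without the drug 10 were higher and 4 lower, against 34.9% and 31.4%. CD44, a hyaluronan receptor, averaged 1504 ± 72.1 CPM in treated MKN1 against 29.3 ± 1.57 CPM in treated AGS, and 1436 ± 106 CPM in untreated MKN1 against 24.9 ± 2.20 CPM in untreated AGS. MMP1 went the other way, at 2.55 ± 1.71 CPM in treated MKN1 against 519 ± 12.5 CPM in treated AGS. Without the drug it averaged 2.37 ± 1.90 CPM in MKN1 against 318 ± 58.1 CPM in AGS. MMP9 was not analysed here.

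The 9 turnover factors and cofactors of AP-1 included the ubiquitin ligase gene FBXW7 and MEN1, which encodes the JUND partner menin. By edgeR 0 of the 9 were called in MKN1, against 2.8% of all genes higher and 3.9% lower. In AGS 0 were called, against 9.21% of all genes higher and 11.6% lower. At an unadjusted p below 0.05, 1 was higher and 1 lower in MKN1, and 2 were higher and 0 lower in AGS. DESeq2 called 1 higher and 1 lower in MKN1 and 1 higher in AGS, and limma voom 0. Their median log2 fold change was 0.11 in MKN1 and 0.21 in AGS.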

How the data were processed

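RNA-seq gene counts of 12 libraries (4 groups of 3, by the sample titles) were analysed. Per the labels' protocols, TRIzol was used for RNA extraction and an NEBNext Ultra RNA kit, which does not mark strand, for the libraries. Alignment used HISAT2 2.0.4 and hg38/GRCh38, per the submitters' processing notes. The sources used here name no counting tool, strand setting or annotation release. The authors deposited raw counts, with no normalization. No column was left without a sample. Symbols matched 32069 of 32269 identifiers. Positions, exon lengths and GC content came from GENCODE 29, and promoters from RefSeq (GRCh38.p14).

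Counts were fitted in edgeR 4.0.16 (R 4.3.3) with filterByExpr, TMM factors and 1 mean per group, with 8 residual and 4.91 prior degrees of freedom (common biological coefficient of variation 19.7%). Quasi-likelihood F tests gave p-values, adjusted by Benjamini-Hochberg over 20280 genes at 0.05. Standard errors and 95% intervals are those the F statistic implies. Intervals of summed counts, and limits of 3 counts for a count of 0, cover counting error only. The fit was also run on simulated counts, with an outcome not reported here. Both lines had the same mean and spread per gene there, so differences between the lines were not covered.

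All 9 members are named. From each other list, up to 3 called genes with the largest change among those of at least 5 CPM are named for a comparison, plus the 3 genes most like each called member (pseudocount 0.5 CPM), and in places further called genes chosen after their values were seen. Some genes of these lists are counted but not reported here by name. Members and lists were chosen with earlier results of these data known. Alternatives were other scalings, DESeq2 1.42.0, limma 3.58.1 (voom), no filter, a filter of 5 CPM in 3 libraries, a replicate block, the compared groups alone, each library left out, and removal of a GC and length trend (lowess span 0.3).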

Additional observations from a re-analysis of the deposited data

Results flagged for a closer look

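The effect of treatment in MKN1 minus that in AGS, tested in the edgeR fit, differed from 0 for 3 members. The log2 difference was 1.18 for FOS, 1.55 for FOSB and 1.51 for JUND. In this fit FOS was called in opposite directions in the lines, and FOSB and JUND were called in AGS. The FOS call in MKN1 was lost when the MKN1 libraries were fitted alone.

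Among the other lists, genes picked by the rule for named genes also differed. In the MAP kinase route the log2 difference was 0.73 for MAP2K1, -1.06 for MAPK3 and -1.19 for RPS6KA5. Among immediate early genes it was 1.35 for BTG2, -1.62 for KLF10 and -1.83 for CCN1. Among AP-1 target genes it was -3.27 for PLAU and 0.79 for TGFB1. PLAU had 68 summed counts in treated AGS and 6 in untreated AGS, so that the size of its difference rests on few counts.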

How the results depend on the processing

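JUND in AGS and the FOS and JUND differences between lines kept direction and call under every alternative run. With 3 libraries a group, several other calls were lost, with the direction kept, when 1 library was left out. Deviations of same-numbered treated and untreated libraries correlated weakly (r from -0.0396 to 0.176 in MKN1 and from -0.0441 to 0.0203 in AGS). With 3 libraries a group this cannot exclude that the numbers pair samples. With a replicate block 0 subunits were called in MKN1 and 1 in AGS (FOS and FOSB lost), with 5 transcription factors of FOS and JUN genes (3 without the block), 2 turnover factors and a JUN change in AGS of 0.00052, and the FOSB difference between lines was lost (edgeR adjusted p = 0.0679). Except where given, the cause of a change was not tested.

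With the GC and length trend removed, 1 subunit was called in AGS, 1 other bZIP gene, 4 MAP kinase genes and 2 turnover factors in either line. The signs turned for small, uncalled changes: FOSL1 in AGS (0.05), JUN in AGS (0.22), BATF3 in MKN1 (-0.01) and FOS between untreated lines (-0.06). Adding the replicate block gave 1, 4 and 2 for these lists, and 0.02, 0.23, -0.0015 and -0.05 for these genes, and JUNB was then called in AGS (0.47, edgeR adjusted p = 0.0453). JUN in AGS, at -0.0015, also turned with DESeq2 size factors (0.01), library totals (0.01), DESeq2 (0.01), limma voom (0.0037) and the 5 CPM filter (0.02).

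DESeq2 called 2424 genes in MKN1, 1 other bZIP gene and 3 turnover factors. Library totals gave 1 turnover factor and the 5 CPM filter 2. With no filter 809 genes were called in MKN1 and 1 transcription factor of FOS and JUN genes. Fitting each line alone, with fewer samples and the spread of that line only, called 34 genes and 0 subunits in MKN1. In AGS it called 8368 genes, among them JUND, FOS, FOSB and MAFF. Over both lines it called 6 other bZIP genes, 6 transcription factors, 12 immediate early genes, 11 target genes and 5 turnover factors.

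With 1 library left out, subunits called ranged from 0 to 2 in MKN1 and from 1 to 3 in AGS. Genes called ranged from 336 to 3160 in MKN1, from 2051 to 5533 in AGS and from 2098 to 4643 for the difference, with each maximum without MKN1 untreated replicate 3. Lists over both lines ranged from 0 to 3 (other bZIP), 3 to 12 (MAP kinase), 1 to 5 (transcription factors), 4 to 9 (immediate early), 4 to 7 (targets) and 0 to 5 (turnover). Signs turned only for uncalled changes. In MKN1 FOSL2 ranged from -0.42 to 0.0045, JUN from -0.54 to 0.08, JUND from -0.05 to 0.33, BATF3 from -0.20 to 0.18 and MAFF from -0.43 to 0.05. In AGS FOSL2 ranged from -0.04 to 0.08, JUN from -0.12 to 0.08, JUNB from -0.08 to 0.25 and BATF3 from -0.52 to 1.98. FOS between untreated lines ranged from -0.07 to 0.12, and the difference of effects from -0.54 to 0.08 for JUN and from -1.93 to 0.57 for BATF3. BATF3 in AGS, at 8 to 16 summed counts, is limited by depth.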
